A study of Homo sapiens with 16 samples.

Results

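Glycolysis after hexokinase is read here through 10 genes that were chosen by name and whose values were looked up in both expression tables: GPI, PFKP, PFKL, ALDOA, ALDOC, TPI1, PGK1, PGAM1, ENO1 and ENO2. The choice was made with earlier results of these data known. The counts of these 10 genes beside the shares of all genes are therefore a description, not a test of the set. All 10 were listed in both tables, of 13559 genes (first experiment) and 14024 genes (second). RNA came from LN229, a human glioblastoma (GBM) cell line, grown in regular culture (complete medium in an ordinary incubator) or in ischemic culture (a medium low in glucose, glutamine and serum, combined with hypoxia). The first experiment compared untreated cells in ischemic and regular culture. The second compared both cultures under DMSO, the vehicle, under VX745, an inhibitor of the kinase p38α, and under MK25, an inhibitor of MK2, a kinase that p38α activates. Each of the 8 groups held 2 libraries, 16 in all, and all groups were of the one cell line. Nothing in the labels says that the libraries of a group came from separate cultures, so the p-values measure only the spread between these libraries, which may be technical.

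After hexokinase has trapped glucose in the cell as glucose 6-phosphate, these enzymes carry it down towards pyruvate. GPI turns it into fructose 6-phosphate, phosphofructokinase commits it to glycolysis by adding a second phosphate, and aldolase splits the product into a pair of triose phosphates that TPI1 interconverts. PGK1 then makes ATP, PGAM1 moves the remaining phosphate, and enolase forms phosphoenolpyruvate, the substrate of pyruvate kinase. Several steps are shared by isozymes from separate genes: PFKP (platelet type), PFKL (liver type) and PFKM (muscle type) for phosphofructokinase, ALDOA (the widespread form) and ALDOC (the brain form) for aldolase, and ENO1 (the widespread form) and ENO2 (the neuronal form) for enolase. Genes of this pathway are textbook targets of the hypoxia-inducible factors (HIF), whose core binding letters are ACGTG or GCGTG.

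The promoter windows of 4 of these genes are printed because they belong to the members with the largest differences between cultures (ALDOC, ENO2 and PGK1) and to ENO1, the other member of the enolase step. Each window runs from 250 bases before to 50 bases after a RefSeq start site on GRCh38.p14, and the sequence reads 5′ to 3′ on the strand of the gene. Capitals mark ACGTG or its reverse complement CACGT, and the run CACGTG holds a match on each strand that overlaps the other.
ALDOC, chr17:28576846-28577145, minus strand: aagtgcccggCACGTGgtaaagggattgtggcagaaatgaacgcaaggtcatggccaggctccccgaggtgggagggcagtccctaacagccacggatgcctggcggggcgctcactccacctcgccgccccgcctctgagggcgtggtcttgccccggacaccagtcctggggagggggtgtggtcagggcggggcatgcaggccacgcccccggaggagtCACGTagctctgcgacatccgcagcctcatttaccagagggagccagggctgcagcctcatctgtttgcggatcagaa
ENO2, chr12:6914330-6914629, plus strand: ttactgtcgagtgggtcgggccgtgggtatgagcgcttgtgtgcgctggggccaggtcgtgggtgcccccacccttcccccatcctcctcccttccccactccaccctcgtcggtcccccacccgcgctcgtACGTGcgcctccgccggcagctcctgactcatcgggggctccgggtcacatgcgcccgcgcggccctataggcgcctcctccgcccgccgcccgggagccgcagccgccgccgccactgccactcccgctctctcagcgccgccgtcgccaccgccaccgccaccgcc
PGK1, chrX:78103998-78104297, plus strand: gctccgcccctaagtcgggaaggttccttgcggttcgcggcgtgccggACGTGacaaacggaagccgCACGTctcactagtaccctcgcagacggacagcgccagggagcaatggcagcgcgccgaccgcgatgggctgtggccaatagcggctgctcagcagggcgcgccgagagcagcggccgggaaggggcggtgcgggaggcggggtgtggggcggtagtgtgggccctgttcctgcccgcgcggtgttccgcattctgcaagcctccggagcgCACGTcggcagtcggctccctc
ENO1, chr1:8878637-8878936, minus strand: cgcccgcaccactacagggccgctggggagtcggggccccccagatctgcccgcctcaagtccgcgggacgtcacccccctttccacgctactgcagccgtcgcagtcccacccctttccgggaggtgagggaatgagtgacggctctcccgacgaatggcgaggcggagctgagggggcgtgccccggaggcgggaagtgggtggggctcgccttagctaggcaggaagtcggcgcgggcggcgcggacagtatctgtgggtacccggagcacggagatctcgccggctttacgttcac

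The ALDOC window held 3 matches to ACGTG on either strand, the PGK1 window 3, the ENO2 window 1 and the ENO1 window 0. RefSeq gave 16 windows for the 10 genes, and 9 of these (56.2%) held ACGTG on either strand, against 21.4% of all 35116 windows and 25.2% of the 16190 windows of genes listed in the second experiment. GCGTG, on either strand and not in capitals, was held by 6 of the 16 windows (37.5%), against 36.5% and 48.1%. It was matched 2 times in the ALDOC window, 1 time in that of PGK1, 0 times in that of ENO2 and 2 times in that of ENO1, so the letters of either core occur in all 4 windows. At least 1 window of GPI, ALDOA, TPI1 and PFKP also held ACGTG, and the windows of PFKL and PGAM1 held none. The windows of GPI, PFKP and PGAM1, 1 of those of ALDOA and the TPI1 window that holds ACGTG start inside the gene as RefSeq bounds it. The windows of one gene can overlap, and a match is a description of the letters only.

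Values are log2 normalized CPM, the log2 of read counts scaled for library depth, as the authors deposited them. Between 20122017 and 37562668 reads per library lay on the listed genes. The lowest read number of any of the 10 genes in a library was 48, for ALDOC in regular untreated replicate 1. The 10 most abundant genes took 4.23% to 4.65% of the reads in regular libraries and 5.66% to 6.45% in ischemic libraries; the part of this difference in the results was not tested. Among 7 markers of the line, VIM, NES, CD44 and EGFR lay between 5.87 and 12.75 on the log2 scale in every group, SOX2 between 3.36 and 6.47, OLIG2 at 1.21 or above and GFAP, the astrocyte filament, between -0.34 and 0.99. Several of these group means differed between the cultures: untreated, SOX2 stood at 3.36 in ischemic and 6.47 in regular culture, NES at 8.45 and 9.81, OLIG2 at 1.21 and 2.89, EGFR at 7.03 and 5.87, and VIM at 12.75 and 11.37. Of 9 markers of immune, endothelial, oligodendrocyte and neuronal cells, 7 were not among the listed genes, SNAP25 lay between 1.59 and 2.42, and CD68 stood higher in ischemic culture, at 5.28 against 4.50 untreated and 5.93 against 5.0 with DMSO. The part of these marker differences in the results was not tested. In bulk RNA, a change in the share of cells that express a gene and a change of its RNA per cell cannot be told apart.

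As a group, the 10 genes took a larger share of the reads in ischemic culture. Their summed share was 1.57% and 1.65% in the ischemic untreated libraries and 0.616% and 0.595% in the regular untreated libraries. With DMSO it was 1.42% and 1.38% in ischemic culture and 0.586% and 0.593% in regular culture. VX745 libraries gave 1.24% and 1.26% in ischemic culture and 0.627% and 0.609% in regular culture. MK25 libraries gave 1.42% and 1.37% in ischemic culture and 0.795% and 0.753% in regular culture. All ischemic libraries lay above all regular libraries, and the regular MK25 libraries were the highest of the regular ones.

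**Figure D1:**
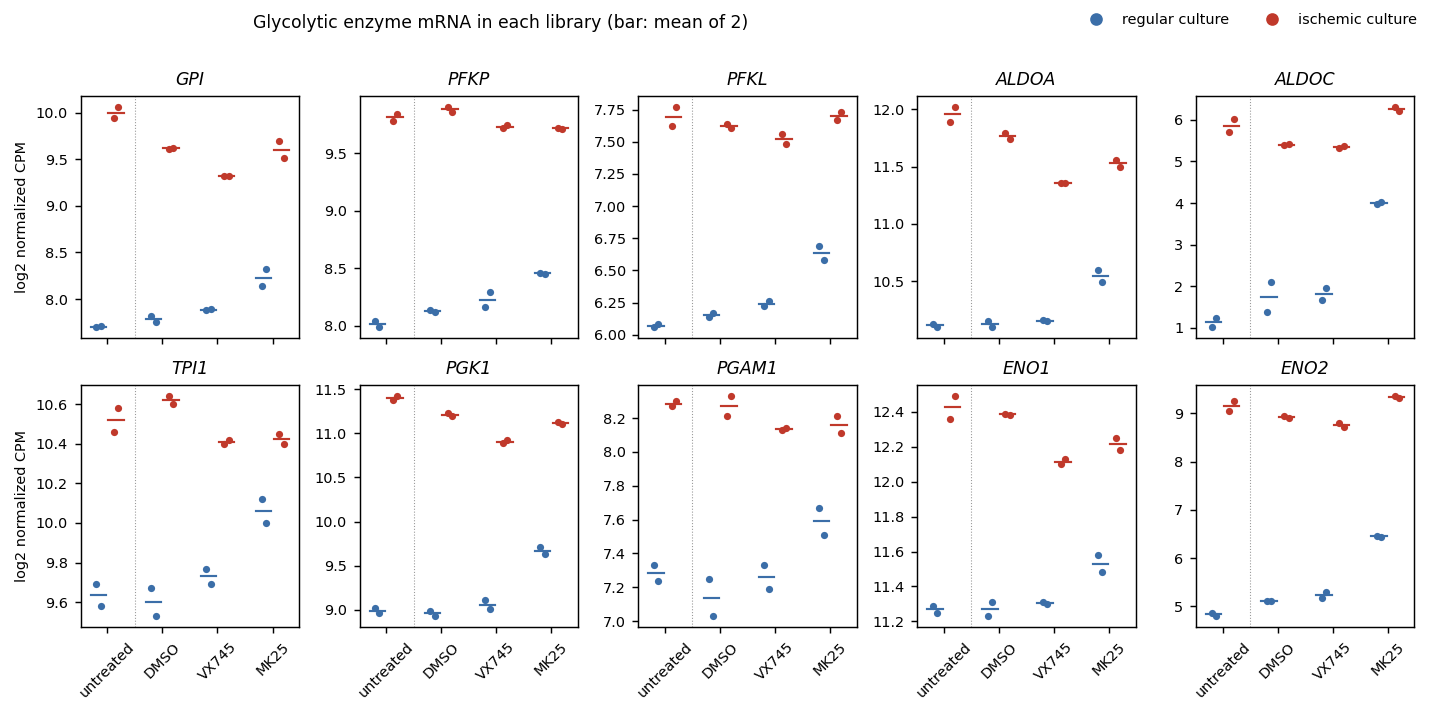
Levels of the 10 genes in each library, as log2 normalized CPM on the y axis (each panel has its own range), with the 4 treatments on the x axis, regular culture in blue, ischemic culture in red, points for libraries and bars for the mean of 2. A dotted line separates the first experiment (untreated) from the second. In every panel the ischemic libraries lie above the regular libraries of the same treatment, as for ENO2 with 8.95 and 8.90 against 5.12 and 5.12 under DMSO. Within a single treatment this held for 41.1% to 43.0% of all genes, and the share for all 4 treatments together was not computed.

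Whether ischemic culture changes the expression of these enzymes was asked first. All 10 genes rose in ischemic culture in both experiments, ALDOC and ENO2 by far the most and TPI1, PGAM1 and ENO1 the least. Of all genes tested, 35.2% were higher in ischemic culture at an adjusted p under 0.05 (limma, Benjamini-Hochberg) in untreated cells and 34.4% under DMSO. Past a 2-fold change, the untreated comparison held 8 of the 10 genes, against 11.3% of all genes, and the DMSO comparison held 10 of 10, against 9.03%. The median difference of the 10 genes was 1.82 log2 units untreated and 1.69 under DMSO, whereas the median of all genes was -0.01 in both. Both ischemic libraries lay above both regular ones for all 10 genes in both experiments, as they did for 42.4% of all genes untreated and 41.3% under DMSO. Under quantile normalization, 3 of the DMSO rises dropped below 2-fold, to 0.32 log2 units for ENO1, 0.61 for TPI1 and 0.94 for PGAM1, and untreated ENO1 to 0.66. Without regular DMSO replicate 2, TPI1 stood at 0.95.

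At the entry of the pathway, GPI (glucose 6-phosphate isomerase) stood at 9.94 and 10.06 in ischemic untreated libraries and at 7.70 and 7.71 in regular ones, on the log2 CPM scale. With DMSO it stood at 9.61 and 9.62 in ischemic culture and at 7.82 and 7.75 in regular culture. The rise was 2.30 ± 0.07 log2 units (SE, n = 2 per group, adjusted p = 4.62e-11) untreated and 1.83 ± 0.06 (adjusted p = 8.92e-14) under DMSO, that is 4.92-fold and 3.56-fold.

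Both phosphofructokinase genes among the 10 rose, PFKP a little more than PFKL. PFKP stood at 9.78 and 9.84 in ischemic untreated libraries against 8.04 and 7.99 in regular ones, and at 9.90 and 9.86 against 8.14 and 8.12 under DMSO. PFKL stood lower, at 7.62 and 7.77 against 6.06 and 6.08 untreated, and at 7.64 and 7.61 against 6.14 and 6.17 under DMSO. The PFKP rise was 1.79 ± 0.07 log2 units (SE, adjusted p = 3.07e-10) untreated and 1.75 ± 0.05 (adjusted p = 1.21e-14) under DMSO. For PFKL it was 1.62 ± 0.07 (adjusted p = 1.54e-09) and 1.47 ± 0.06 (adjusted p = 2.61e-13).

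At the aldolase step, the abundant ALDOA rose 3.59-fold and 3.12-fold, and the scarce ALDOC rose 26.4-fold and 12.5-fold, untreated and under DMSO. ALDOA stood at 11.89 and 12.02 in ischemic untreated libraries against 10.13 and 10.10 in regular ones, and at 11.79 and 11.74 against 10.15 and 10.10 under DMSO. ALDOC stood at 5.70 and 6.01 against 1.02 and 1.24 untreated, from 1429 and 1361 reads against 48 and 64. With DMSO, ALDOC stood at 5.39 and 5.41 in ischemic culture (1027 and 1244 reads) against 1.39 and 2.11 in regular culture (80 and 105 reads). The regular DMSO libraries thus differed more from each other (SD 0.51) than those of any other group, yet both lay far below the ischemic ones. The ALDOC rise was 4.72 ± 0.14 log2 units (SE, adjusted p = 3.84e-11) untreated and 3.65 ± 0.16 (adjusted p = 1.14e-12) under DMSO, the latter between 3.29 and 4.01 over the alternatives tried. The ALDOA rise was 1.85 ± 0.08 (adjusted p = 1.15e-09) and 1.64 ± 0.06 (adjusted p = 1.32e-13).

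TPI1, the triose isomerase, rose by the least in untreated cells, 1.84-fold. Its ischemic untreated libraries stood at 10.46 and 10.58 and its regular ones at 9.69 and 9.58, a difference of 0.88 ± 0.08 log2 units (SE, adjusted p = 5.42e-07). With DMSO they stood at 10.64 and 10.60 against 9.67 and 9.53, a difference of 1.02 ± 0.06 (adjusted p = 1.79e-10).

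PGK1, the first step of the pathway that makes ATP, had the third largest rise of the 10. It stood at 11.38 and 11.42 in ischemic untreated libraries against 9.02 and 8.96 in regular ones, and at 11.23 and 11.19 against 8.99 and 8.93 under DMSO. The differences were 2.41 ± 0.07 log2 units (SE, adjusted p = 4.02e-11) and 2.25 ± 0.06 (adjusted p = 9.67e-16). PGAM1, the mutase that follows it, stood at 8.27 and 8.30 against 7.33 and 7.24 untreated and at 8.21 and 8.33 against 7.25 and 7.03 under DMSO. Its differences of 1.00 ± 0.07 (SE, adjusted p = 5.71e-08) and 1.12 ± 0.08 (adjusted p = 5.04e-10) were less than those of PGK1.

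At the enolase step, ENO1 rose 2.23-fold and 2.17-fold while ENO2 rose 20-fold untreated and 13.9-fold under DMSO. ENO1, the most abundant of the 10 per length, stood at 12.36 and 12.49 in ischemic untreated libraries against 11.29 and 11.25 in regular ones, and at 12.39 and 12.38 against 11.23 and 11.31 under DMSO. ENO2 stood at 9.05 and 9.26 against 4.87 and 4.80 untreated, and at 8.95 and 8.90 against 5.12 and 5.12 under DMSO. The ENO2 difference was 4.32 ± 0.08 log2 units (SE, adjusted p = 7.65e-13) untreated and 3.80 ± 0.05 (adjusted p = 3.29e-19) under DMSO, and that of ENO1 was 1.16 ± 0.09 (adjusted p = 1.36e-07) and 1.12 ± 0.06 (adjusted p = 7.58e-11).

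The difference between cultures was present under both inhibitors too. All 10 genes were higher in ischemic culture with VX745 (median 1.36 log2 units; 34.0% of all genes were higher) and with MK25 (median 1.16; 33.5% of all genes). Both ischemic libraries lay above both regular ones for all 10 genes with each inhibitor, as for 43.0% of all genes with VX745 and 41.1% with MK25. Past 2-fold there were 7 of the 10 with VX745, against 9.28% of all genes, and 6 of the 10 with MK25, against 8.56%. ENO2 differed by 3.52 ± 0.05 log2 units with VX745 and 2.88 ± 0.05 with MK25, and ALDOC by 3.54 ± 0.16 and 2.27 ± 0.16 (SE, n = 2 per group). TPI1 was again the least, with 0.67 ± 0.06 and 0.36 ± 0.06. Under quantile normalization, ENO1 no longer passed the test in the MK25 comparison (0.08, adjusted p = 0.452).

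**Figure D2:**
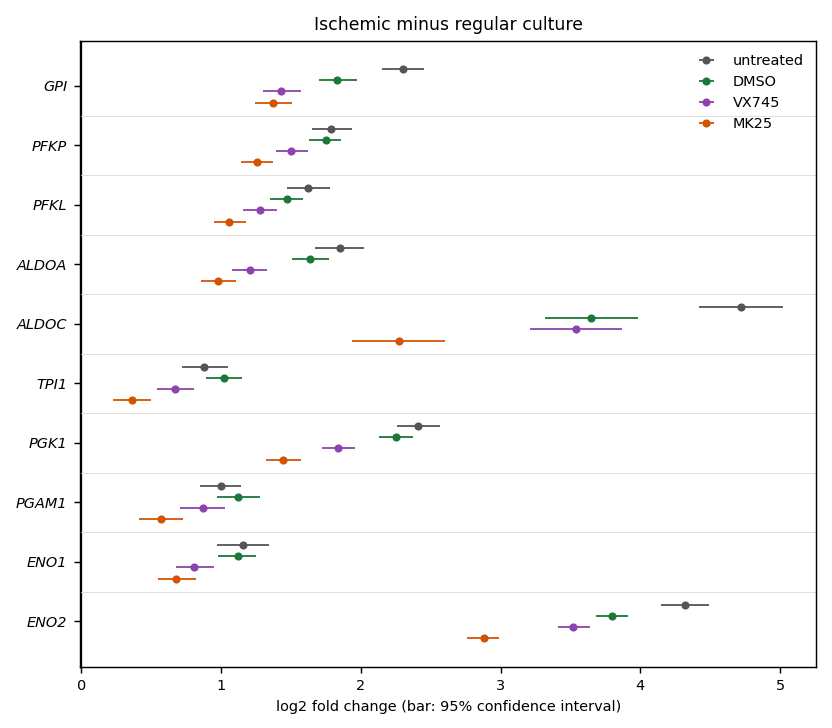
Ischemic minus regular culture for each gene, as log2 fold change on the x axis, with points for the estimate and bars for the 95% confidence interval, untreated in grey, DMSO in green, VX745 in purple and MK25 in orange. Every interval lies above 0; ALDOC (4.72 untreated) and ENO2 (4.32 untreated) stand far to the right, and the MK25 estimate is the lowest of the 4 for each gene.

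Isozymes of one step did not rise by the same amount. Over the 4 treatments, ALDOC minus ALDOA was 2.13 log2 units higher in ischemic than in regular culture, ENO2 minus ENO1 was 2.69 higher, and PFKP minus PFKL was 0.21 higher. In a two-sided exact permutation test that shuffled the culture labels within each treatment, each of the 3 pairs gave p = 0.00154 (0.00154 after adjustment over the 3 pairs), the smallest p that the 1296 assignments allow. By treatment, ALDOC minus ALDOA shifted by 2.88 untreated, 2.0 with DMSO, 2.33 with VX745 and 1.29 with MK25. ENO2 minus ENO1 shifted by 3.17, 2.68, 2.71 and 2.19 in the same order, and PFKP minus PFKL by 0.18, 0.27, 0.22 and 0.19.

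Per length of the transcript (CPM per kilobase), the minor isozymes nevertheless stayed minor. ENO2 made up 0.883% ± 0.0113 (SD, n = 2) of enolase mRNA in regular untreated cells and 7.42% ± 0.29 in ischemic untreated cells, and 1.08% ± 0.0354 and 6.53% ± 0.113 with DMSO. ALDOC made up 0.195% ± 0.0247 of aldolase mRNA in regular untreated and 1.46% ± 0.127 in ischemic untreated cells, and 0.31% ± 0.117 and 1.22% ± 0.0424 with DMSO. With MK25 the shares were higher in both cultures, 2.24% and 9.5% for ENO2 and 1.07% and 2.58% for ALDOC. The shares with VX745, 1.14% and 7.01% for ENO2 and 0.309% and 1.56% for ALDOC, lay nearer to those with DMSO.

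Phosphofructokinase mRNA held a larger share of PFKP and a smaller share of PFKM, the muscle gene, in ischemic culture. PFKP held 67% ± 0.141 (SD, n = 2) of this mRNA in regular DMSO cells and 79.7% ± 0.212 in ischemic DMSO cells, while PFKM held 17.6% ± 0.566 and 5.22% ± 0.191. PFKL held 15.3% ± 0.354 and 15.1% ± 0. The PFKM level itself fell by 0.61 ± 0.08 log2 units untreated (adjusted p = 3.11e-05) by 0.26 ± 0.06 under DMSO (adjusted p = 0.000507) and by 0.24 ± 0.06 with VX745 (adjusted p = 0.00108). With MK25 its difference of -0.09 ± 0.06 did not pass (adjusted p = 0.138).

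**Figure D3:**
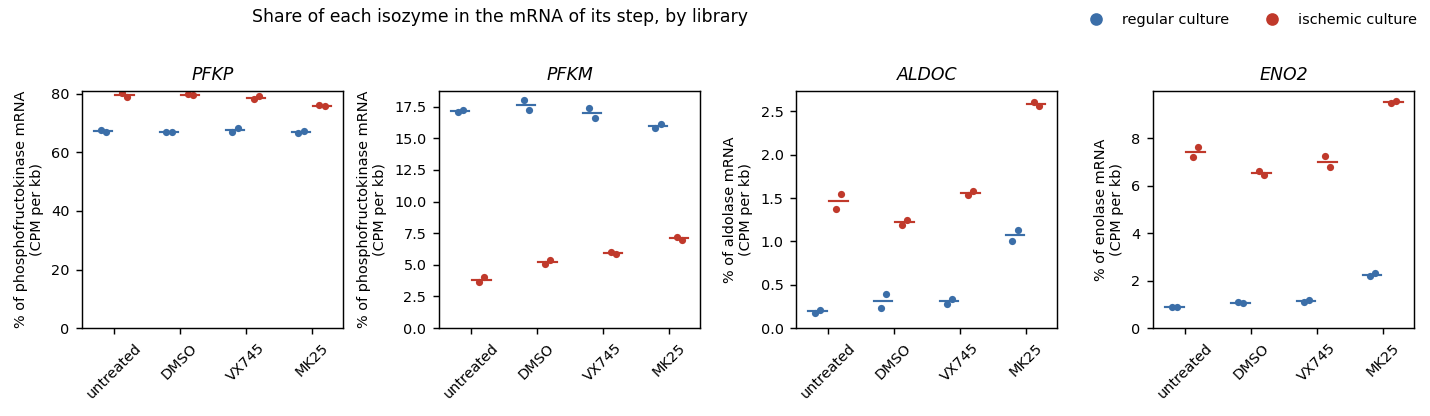
Share of PFKP, PFKM, ALDOC and ENO2 in the mRNA of their step, in percent of CPM per kilobase on the y axis (from 0, each panel with its own range), by treatment on the x axis, regular culture in blue, ischemic in red, points for libraries and bars for the mean of 2. PFKM moves the opposite way to the other 3: its share is 17.6% in regular and 5.22% in ischemic DMSO cells, against 1.08% and 6.53% for ENO2.

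Ordered by level per length, ENO1 led in both cultures with DMSO, at 1389 ± 56.6 CPM per kilobase in regular and 3013 ± 15.6 in ischemic cells (SD, n = 2). ALDOA (681 ± 14.8 and 2122 ± 61.5) and TPI1 (577 ± 40 and 1166 ± 20.5) followed. PFKP and PGK1 stood close in regular culture, at 107 ± 0.636 and 103 ± 2.9, and PGK1 stood higher in ischemic culture, at 493 ± 9.33 against 358 ± 6.51. ENO2 moved from 15.1 ± 0.0495, below PFKL at 24.5 ± 0.41, to 211 ± 5.02, above GPI at 190 ± 0.283 and PGAM1 at 171 ± 9.76. ALDOC was the lowest in both, at 2.11 ± 0.751 and 26.2 ± 0.247. The length is that of 1 reference transcript per gene, so a shorter form in these cells would raise the level of its gene.

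The second question was whether the inhibitors change these genes in ischemic culture. With VX745, 7 of the 10 genes fell relative to DMSO by modest amounts and none rose, against 14.9% of all genes lower. The genes that fell were GPI, PFKP, ALDOA, TPI1, PGK1, ENO1 and ENO2, and none of them by 1.5-fold. ALDOA stood at 11.36 and 11.36 with VX745 against 11.79 and 11.74 with DMSO, a fall of 0.40 ± 0.06 log2 units (SE, adjusted p = 0.000126). PGK1 stood at 10.89 and 10.92 against 11.23 and 11.19 (-0.31 ± 0.06, adjusted p = 0.000785), and GPI at 9.32 and 9.32 against 9.61 and 9.62 (-0.30 ± 0.06, adjusted p = 0.00262). For the 3 genes that did not pass, the 95% intervals ran from -0.23 to 0.01 for PFKL, from -0.37 to 0.29 for ALDOC and from -0.29 to 0.03 for PGAM1. Both VX745 libraries lay below both DMSO libraries for all 10 genes, as they did for 35.7% of all genes.

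These small differences depended on single libraries and on scaling. The count of 7 became 3 without ischemic VX745 replicate 1, 4 without ischemic VX745 replicate 2, 4 without ischemic DMSO replicate 1 and 4 without ischemic DMSO replicate 2. It was 0 under quantile normalization, where the median of the 10 genes moved from -0.19 to -0.02 and PFKP (0.05) and ENO2 (0.03) changed sign.

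With MK25 in ischemic culture, ALDOC and ENO2 rose further while 4 genes fell slightly. Of all genes, 19.8% were higher and 22.0% lower. ALDOC stood at 6.31 and 6.22 with MK25 against 5.39 and 5.41 with DMSO, a rise of 0.87 ± 0.16 log2 units (SE, adjusted p = 0.000291). ENO2 stood at 9.36 and 9.31 against 8.95 and 8.90, a rise of 0.41 ± 0.05 (adjusted p = 1.62e-05). Both rises passed the test in each of the 12 alternatives. PFKP (-0.16), ALDOA (-0.24), TPI1 (-0.20) and ENO1 (-0.17) fell, each with a standard error of 0.05 or 0.06 and an adjusted p between 0.00434 and 0.0413. Those 4 falls were less firm, with 2 left without ischemic MK25 replicate 1, 0 without ischemic MK25 replicate 2, 0 without ischemic DMSO replicate 1 and 1 without ischemic DMSO replicate 2. Quantile normalization gave 5 higher and 0 lower, with the sign turned for PFKP (0.07), TPI1 (0.05) and ENO1 (0.18). The 95% intervals of the genes that did not pass ran from -0.15 to 0.12 for GPI, from -0.05 to 0.19 for PFKL, from -0.22 to 0.03 for PGK1 and from -0.27 to 0.05 for PGAM1.

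Compared directly in ischemic culture, 5 of the 10 genes were higher with MK25 than with VX745, against 8.22% of all genes, and none was lower. ALDOC differed by 0.91 ± 0.16 log2 units (SE, adjusted p = 0.000435), ENO2 by 0.58 ± 0.05 (adjusted p = 7.56e-07), GPI by 0.28 ± 0.06 (adjusted p = 0.00485), PGK1 by 0.21 ± 0.06 (adjusted p = 0.014) and PFKL by 0.18 ± 0.06 (adjusted p = 0.0337). The count was 2 without ischemic MK25 replicate 1 and 3 without ischemic MK25 replicate 2, ischemic VX745 replicate 1 or ischemic VX745 replicate 2, each left out alone. These inhibitor comparisons share libraries with each other, so their results are not independent.

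In regular culture the inhibitors were set against DMSO in the same way. No member passed the test with VX745, either at an adjusted p or at an unadjusted p under 0.05 (limma, 0 of 10 in both), and voom on the recovered reads also gave 0. Of all genes, 0.178% were higher with VX745. The member differences ran from 0.03 to 0.13 log2 units, and their 95% intervals reached at most 0.28 except for ALDOC, at 0.39.

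With MK25, in contrast, all 10 genes rose in regular culture, against 7.00% of all genes, and the order again put ALDOC and ENO2 first. ALDOC stood at 3.97 and 4.02 with MK25 (327 and 371 reads) against 1.39 and 2.11 with DMSO, a rise of 2.25 ± 0.16 log2 units (SE, adjusted p = 1.78e-08). ENO2 stood at 6.47 and 6.45 against 5.12 and 5.12, a rise of 1.34 ± 0.05 (adjusted p = 1.2e-11). PGK1 stood at 9.71 and 9.63 against 8.99 and 8.93, a rise of 0.71 ± 0.06 (adjusted p = 1.35e-07). These 3 were past a 1.5-fold change, as were 1.88% of all genes. The other rises lay between 0.26 ± 0.06 for ENO1 (adjusted p = 0.0147) and 0.48 ± 0.06 for PFKL (adjusted p = 1.85e-05). Both MK25 libraries lay above both DMSO libraries for all 10 genes, as they did for 25.8% of all genes. ENO1 no longer passed without regular MK25 replicate 1 (0.21, adjusted p = 0.102) or when only the groups compared were fitted (0.26, adjusted p = 0.215).

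**Figure D4:**
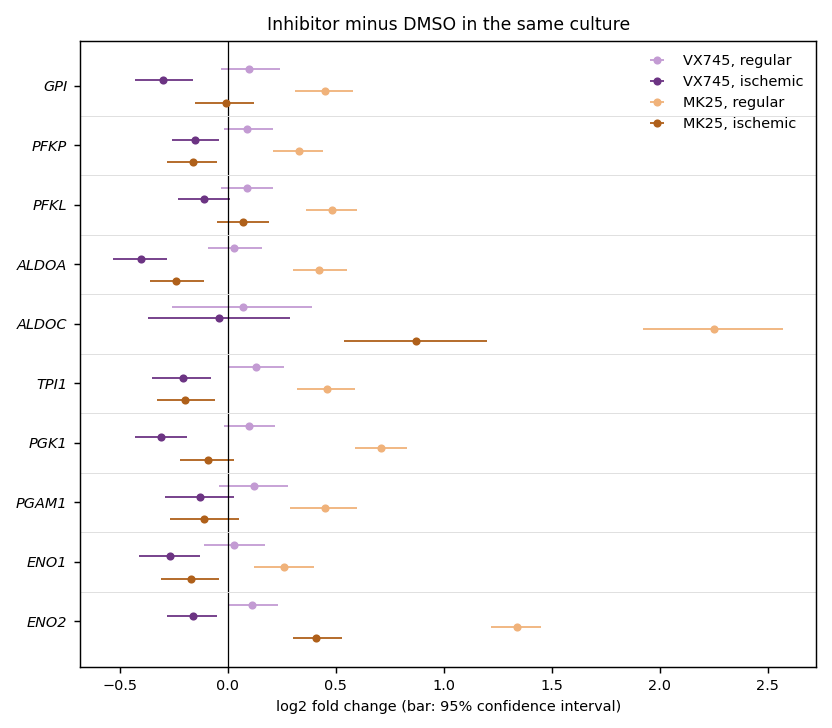
Inhibitor minus DMSO within one culture for each gene, as log2 fold change on the x axis, with points for the estimate and bars for the 95% confidence interval, VX745 in purple and MK25 in orange, regular culture in the lighter and ischemic culture in the darker shade. MK25 in regular culture lies above 0 for every gene and reaches 2.25 for ALDOC and 1.34 for ENO2, whereas the VX745 estimates lie between -0.40 and 0.13.

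The difference between the 2 cultures in the effect of an inhibitor was tested as an interaction, the effect in ischemic minus that in regular culture. For MK25 it was negative and passed the test for all 10 genes, as it did for 13.9% of all genes, and the median of the 10 was -0.60 log2 units. It was -1.38 ± 0.22 for ALDOC (SE, adjusted p = 0.00028), -0.92 ± 0.08 for ENO2 (adjusted p = 4.82e-07) and -0.81 ± 0.08 for PGK1 (adjusted p = 3.35e-06). For VX745 it passed the test for 7 of the 10, all negative, against 11.8% of all genes in either direction, with ALDOA at -0.43 ± 0.08 (adjusted p = 0.00434), PGK1 at -0.41 ± 0.08 (adjusted p = 0.00481) and GPI at -0.40 ± 0.09 (adjusted p = 0.0106). The VX745 count was 2 and 3 without ischemic VX745 replicates 1 and 2, 3 and 4 without ischemic DMSO replicates 1 and 2, 4 without regular VX745 replicate 2 and 4 without regular DMSO replicate 2. Quantile normalization gave 0 for VX745 and 8 for MK25.

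Over the 6 groups of the second experiment, ENO2 thus stood lowest in regular DMSO (5.12 ± 0.00, SD on the log2 CPM scale, n = 2) and regular VX745 (5.23 ± 0.08), then at 6.46 ± 0.01 in regular MK25, 8.76 ± 0.06 in ischemic VX745, 8.93 ± 0.04 in ischemic DMSO and 9.34 ± 0.04 in ischemic MK25. ALDOC followed the same order, at 1.75 ± 0.51, 1.81 ± 0.21, 4.00 ± 0.04, 5.35 ± 0.03, 5.40 ± 0.01 and 6.26 ± 0.06. By the tests above, regular VX745 did not pass against regular DMSO for either gene, and neither did ischemic VX745 against ischemic DMSO for ALDOC.

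The profiles of the 10 genes were compared over the 12 libraries of the second experiment, and ALDOC and ENO2 lay furthest from their mean. After each gene was centred on its mean, ALDOC lay 0.96 log2 units (root mean square) from the mean profile of the 10 genes and ENO2 lay 0.91, against 0.12 to 0.49 for the other 8. ALDOC and ENO2 were each other's nearest member, at 0.39. Among 10043 other genes whose mean log2 value reached 3, the nearest to the mean profile were SSBP2 at 0.09, and HK1 (a hexokinase), ZNF160, ZNF292 and MTFP1 at 0.11. The nearest genes to single members were SSBP2 for GPI (0.07), SHMT2 for PFKP (0.08), WDR54 for PFKL (0.10), TULP3 for ALDOA (0.08), CCNG2 for ALDOC (0.35), HDHD5 for TPI1 (0.07), WSB1 for PGK1 (0.12), KAT5 for PGAM1 (0.08), PPME1 for ENO1 (0.05) and SPRY1 for ENO2 (0.14). Each of these genes lay nearer to its member than any other member did, as PPME1 to ENO1 at 0.05 against PGAM1 at 0.10. The outside gene was picked from 10043 genes and the nearest member from the few other members. A search of that size favours the outside gene, so this does not tell how alike the members are. The libraries are shared by all these profiles, and the distance is a description.

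The other enzymes of the same and the remaining lower steps did not all move with the 10 genes. Of 12 such genes, 9 had values, and ischemic culture raised 5 and lowered 4 in untreated cells and also raised 5 and lowered 4 under DMSO. Of all genes tested, 35.2% were higher and 35.2% lower untreated, and 34.4% were higher and 35.2% lower under DMSO. GAPDH, which feeds PGK1, rose by 1.09 ± 0.10 log2 units untreated and 1.04 ± 0.07 under DMSO, and PKM, the pyruvate kinase of most cells, by 0.64 ± 0.09 and 0.72 ± 0.07. PGAM2, PGAM4 and ENO3 also rose. BPGM, which diverts the product of GAPDH to 2,3-bisphosphoglycerate, fell by 1.94 ± 0.12 and 1.78 ± 0.09, and PFKM, GAPDHS (the sperm GAPDH) and ENO4 fell as well. ENO4 had few reads, 19 and 5 in ischemic against 31 and 46 in regular untreated libraries, and 8 and 10 against 43 and 60 with DMSO. MK25 in regular culture raised 2 of these 9, beside 7.00% of all genes, PFKM by 0.19 ± 0.06 and GAPDH by 0.23 ± 0.07, and lowered none.

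Of 21 enzymes that branch from or return to the pathway, 18 had values. In untreated cells 8 rose and 5 fell with ischemic culture, and under DMSO 10 rose and 5 fell, beside 35.2% of all genes higher and 35.2% lower untreated and 34.4% and 35.2% under DMSO. Those higher past 2-fold numbered 5 in each experiment, beside 11.3% of all genes untreated and 9.03% under DMSO. PHGDH, which opens serine synthesis from 3-phosphoglycerate, rose by 2.23 ± 0.06 log2 units (SE) untreated and 2.31 ± 0.05 under DMSO. GFPT1 (1.71 and 1.14) and GFPT2 (1.87 and 2.12), which draw fructose 6-phosphate into hexosamines, MPI (1.69 and 1.49), which links it to mannose, and PGM1 (1.33 and 1.32), which links glucose 6-phosphate to glycogen, made up the rest of the 5 in each. RPE, an epimerase of the pentose phosphate pathway, was higher (0.38 and 0.38) and RPIA, its isomerase, was lower (-0.67 and -0.53) in both experiments. With MK25 in regular culture 5 of the 18 rose, beside 7.00% of all genes, among them MPI by 0.72 ± 0.06 and PGM1 by 0.66 ± 0.06.

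Reads of some of these genes can be shared with other loci. RefSeq places LOC112694756 over 6136 bases of ALDOA, and the ends of TPI1 and SPSB2 overlap by 14 bases, with SPSB2 between 3.21 and 4.20 on the log2 scale. LOC124902868 lies over 1168 bases of ENO2, SNORD142 over 195 bases of PFKP and MIR6728 over 89 bases of ENO1. PGAM1 has 13 named pseudogenes, TPI1 and ENO1 have 4 each, and ALDOA and PGK1 have 2 each, while PGAM4 is a retrocopy of PGAM1. How reads that match several places or either strand were counted is not given in the sources used here. The levels of PGAM1, PGAM4, TPI1, ALDOA, PGK1, ENO1, ENO2 and PFKP are therefore uncertain by the reads so shared.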

How the data were processed

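RNA from LN229 cells (16 libraries, 8 groups of 2) was prepared with a SMART-Seq mRNA kit and sequenced in pairs of reads. The authors trimmed the reads, aligned them with HISAT2 to GRCh38 in Galaxy, normalized gene counts with edgeR and deposited log2 normalized CPM per gene, as 1 table per experiment; the counting tool is not given in the sources used here. The tables were normalized separately, so limma tests stayed within a table. The isozyme test shuffled labels only within a treatment, hence within a table, and averaged differences over both tables. Entrez identifiers were matched to RefSeq symbols (99.4% and 99.3% matched). Undoing the logarithm gave whole reads for 100% of low values (within 0.05 of a read).

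Members were looked up by name, and all genes were fitted with limma (version 3.58.1, R 4.3.3) with 1 mean per group and a variance trend. The p-values were two-sided, adjusted by Benjamini-Hochberg over all genes of each of 11 comparisons; intervals are 95%. All 10 members were tested with no filter on low values. Calls were made at an adjusted p of 0.05, and where a fold is named also at 2-fold for ischemia and 1.5-fold for inhibitors. The paper's test takes counts, and limma was used because the deposited values are on the log2 scale. On simulated data, 100% of 200 genes changed by 1 log2 unit were recovered in the ischemia comparison of untreated cells (13559 genes) and in that with DMSO (14024 genes), with 3 and 10 false calls. Isozyme pairs were compared by an exact permutation test. Transcript lengths are those of MANE transcripts. Promoters came from RefSeq. Replicates of a group differed beyond sampling noise (chi-square per gene 3.29 to 9.4). The members and the gene lists were chosen with earlier results of these data known. The named genes are the 10 members, the 2 lists of related enzymes and the nearest profiles. Figures used Python 3.11.15 and matplotlib 3.10.9.

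Alternatives were a filter at a mean log2 value of 0, median centring, quantile normalization, no variance trend, the replicate number as a block, voom on the recovered reads, log2(value + 1), only the groups compared, and each library left out in turn. Protein sequences were not used here. The values of 1 gene of the lists are not reported here.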

Additional observations from a re-analysis of the deposited data

Results flagged for a closer look

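The effect of MK25 differed between the cultures for all 10 genes by the interaction test (ischemic minus regular, limma with adjusted p under 0.05). All 10 differences were negative, against 13.9% of all genes with a negative difference that passed. On the log2 scale the difference was -0.46 for GPI, -0.49 for PFKP, -0.41 for PFKL, -0.66 for ALDOA, -1.38 for ALDOC, -0.65 for TPI1, -0.81 for PGK1, -0.55 for PGAM1, -0.43 for ENO1 and -0.92 for ENO2.

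The effect of VX745 differed between the cultures for 7 genes by the same test, against 11.8% of all genes in either direction. This count fell when single libraries were left out and was 0 under quantile normalization. The difference was -0.40 for GPI, -0.24 for PFKP, -0.43 for ALDOA, -0.34 for TPI1, -0.41 for PGK1, -0.30 for ENO1 and -0.27 for ENO2. Both interactions use the same DMSO libraries, and the regular DMSO and ischemic DMSO libraries enter each of them.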

How the results depend on the processing

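The 10 rises in ischemic culture were called in every alternative tried for untreated, DMSO and VX745 cells, and 9 or 10 of them for MK25 cells. Each of 69 recomputed isozyme differences kept its direction and its call, with PFKP minus PFKL between 0.2 and 0.23, ALDOC minus ALDOA between 1.81 and 2.4 and ENO2 minus ENO1 between 2.53 and 2.85. Of 1390 recomputed member differences, 1273 kept direction and call, 93 lost the call, 5 gained it, 12 that passed in neither fit changed sign, and 7 that passed in at least 1 fit changed sign. These 7 came from quantile normalization. They were PFKP (0.05) and ENO2 (0.03) with VX745 in ischemic culture, and GPI (0.24), PFKP (0.07), TPI1 (0.05), PGK1 (0.18) and ENO1 (0.18) with MK25 in ischemic culture, where the member median became 0.18; the cause was not tested. The 12 others include ALDOC with VX745 in regular culture (0.07, and -0.30 without regular DMSO replicate 1) and its VX745 interaction (-0.11, and 0.25 without that library). Under quantile normalization, VX745 in ischemic culture lowered 0 members, MK25 there raised 5 and lowered 0, and the VX745 interaction was called for 0. Without a variance trend, VX745 in ischemic culture lowered 4 and its interaction held 2. With 1 library left out, the members lower ranged from 3 to 4 for VX745 in ischemic culture, from 0 to 2 for MK25 there and from 2 to 6 for the VX745 interaction, and those higher from 2 to 3 for MK25 against VX745; these fits have fewer libraries. The replicate numbers showed no pairing common to all groups (over 16 pairs of groups the correlation of replicate differences ran from -0.27 to 0.32, and 4 were over 0.1). Between the cultures of one treatment it was 0.27 untreated, -0.04 with DMSO, -0.12 with VX745 and 0.32 with MK25, so some pairing remains possible. With the replicate block, no member count changed by over 1.5 times (7 members lower with VX745 in ischemic culture), and the isozyme differences gave an exact p = 0.00781 by sign flips. In the second experiment alone each pair gave an exact p = 0.00926. This fit is the same as the one without the untreated libraries, so the 69 isozyme differences count it again. Groups of 2 libraries limit the precision of all these differences, and not only of the small ones. ALDOA with VX745 in ischemic culture (-0.40) ranged from -0.43 to -0.08 log2 units over the alternatives tried.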
